A study of Prunus yedoensis with 90 samples.

Results

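The genes described here are the 200 whose bud transcript level followed the widest yearly course with its highest point in September or October, out of 95076 gene IDs measured in the flowering cherry 'Somei-yoshino' (Prunus yedoensis). Levels are in TPM, a transcript abundance scaled for transcript length and to 1 fixed total per library, and a difference is given on the scale log2(TPM + 1), which understates the change of genes with low TPM. Of the 40161 IDs with a mean of at least 1 TPM over 66 bud libraries, 2477 had monthly bud means at least 3 apart on this scale, 290 of these were highest in September or October, and the 200 with the widest range were kept. The members were thus chosen by their monthly bud levels from June to March, averaged over 6 trees with the Fukuoka collection of 29 August left out. The monthly course is a description of how they were chosen and was not tested.

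In trees of cool climates, buds form in summer, and in cherries the flower primordia begin inside the flower buds in the same season. In autumn the buds pass into a dormancy that warmth alone does not break, exposure to cold through the winter ends it, and growth then waits for the warmth of spring. Cherry buds of September and October therefore hold developing organs, and the buds are enclosed in scales while the leaves are still on the tree or are being shed.

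The study sampled 2 trees at each of 3 sites in Japan, Hokkaido in the north, Tsukuba in the middle and Fukuoka in the south, and all 6 trees carry the same cultivar, which is propagated by grafting as a single clone. The labels give no difference in treatment between the groups. Buds were taken on 11 dates per site from June 2018 to March or April 2019 (66 libraries) with leaves alongside on the earliest 4 dates (24 libraries). The September, October and November buds were taken on 7 September, 11 October and 8 November in Hokkaido, on 5 September, 7 October and 16 November in Tsukuba, and on 26 September, 24 October and 22 November in Fukuoka, so a difference between sites within a month cannot be told apart from a difference in date. The replicate number of a library names its tree at the site. Gene names are not paired with the IDs in the files, so members are given by ID and nothing is said of what they encode, and the labelled tissue could not be checked against marker genes.

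Of the 200 members, 120 had their highest monthly mean in September and 80 in October. January was the lowest month for 148 of them, February for 30, June for 12, March for 6 and December for 4. The range between the highest and lowest month ran from 3.36 to 6.61 with a median of 3.83, and it reached 4 in 84 members, 5 in 23 and 6 in 3. In its highest month a member averaged between 10.9 and 1111 TPM over the 6 trees, with a median of 71.4 TPM. In its lowest month the median member averaged 2.03 TPM, and 77 members averaged under 1 TPM. The limit of 200 fell between close values: CYE_r3.1SPE1_g000360.1, CYE_r3.1SPA6_g016560.1 and CYE_r3.1SPA1_g038850.1 were the last inside it with ranges of 3.3708, 3.3655 and 3.3583, and CYE_r3.1SPE8_g017100.1, CYE_r3.1SPE1_g042700.1 and CYE_r3.1SPE1_g042690.1 were the first outside it with 3.3558, 3.3554 and 3.3534.

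At the median, the course rose from June to a plateau from August to October and had a deep trough in midwinter. In June 45 members were within 1 of their highest month on the log2 scale, and in July 95 were. The median of the members on the log2(TPM + 1) scale was 3.99 in June, 4.83 in July, 5.40 in August, 5.65 in September, 5.55 in October, 4.22 in November, 3.97 in December, 1.67 in January, 2.15 in February and 3.97 in March. Together they held 2.96 ± 1.24% of a bud library's TPM in September (SD, n = 6 trees) and 2.24 ± 0.812% in October, but 0.265 ± 0.154% in January. In August 162 members were within 1 of their highest month on the log2 scale, while in November 30 were, so the rise was gradual and the decline after October was steeper. Only 15 members stood at least 1 above every month other than September and October. For 119 members the September and October means lay within 0.5 of each other, so the assignment to one of these months rests on a small difference. In these whole buds, fewer cells of a type and less RNA per cell cannot be told apart.

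**Figure D1:**
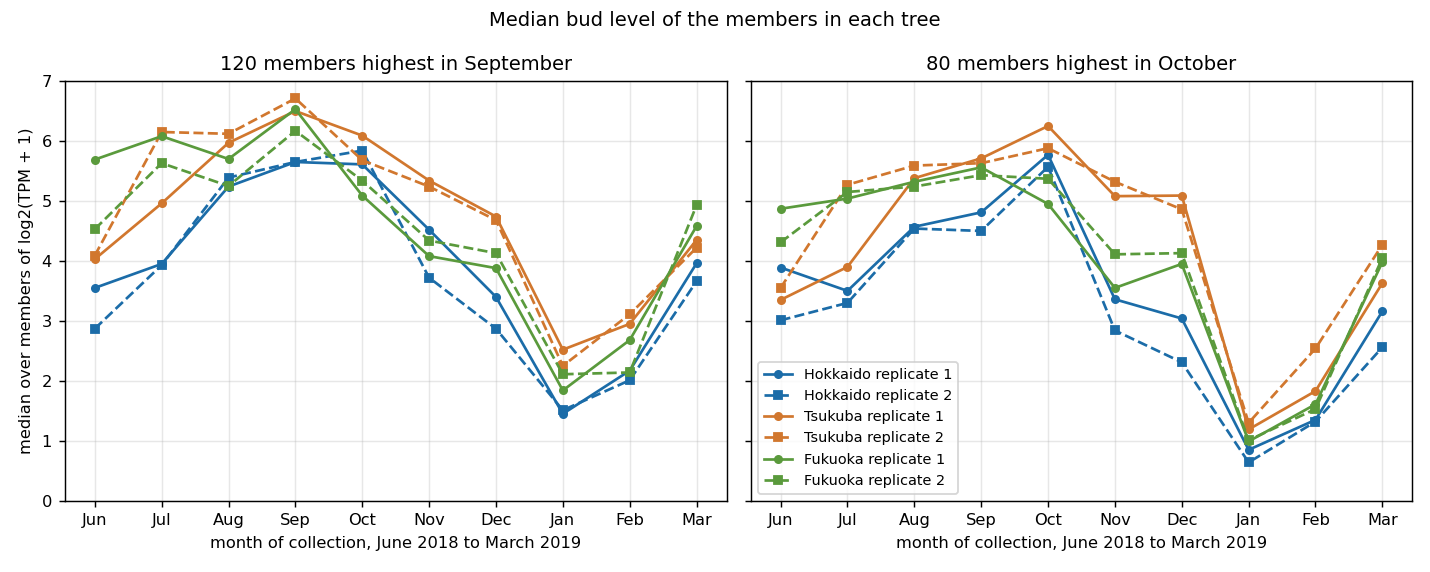
Median of log2(TPM + 1) over the 120 members highest in September (left) and the 80 highest in October (right) in each month of collection, with a line for each tree (solid for replicate 1, dashed for replicate 2; Hokkaido blue, Tsukuba orange, Fukuoka green). All 6 trees have their lowest median in January, and the Hokkaido trees lie below the Tsukuba trees in November and December.

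The low point of January and the return in March were shared by most members. January lay at least 1 below December in 171 members and at least 2 below it in 102. March lay at least 1 above January in 171 members and at least 2 above it in 121, yet only 43 members were within 1 of their highest month in March. At the median of the members, the 6 trees ranged from 1.19 to 1.94 in January and from 3.14 to 4.51 in March, with no overlap between these months. Library numbers in the labels jump to a later series between October and December in 4 of the trees. They run on without a jump in the other 2, Hokkaido replicate 2 and Tsukuba replicate 2. In those 2 trees, which are among the 6 whose means chose the members, 169 of the 200 members were highest in September or October. The median of the members there was 5.75 in October and 1.67 in January, against 5.43 and 1.67 in the other 4 trees. Both Fukuoka trees are among those 4, so library series and site cannot be fully told apart.

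The member with the widest range was CYE_r3.1SPE0_g004720.1. In September it had 24.2 and 158 TPM in Hokkaido, 234 and 317 TPM in Tsukuba and 158 and 360 TPM in Fukuoka. In February the 6 trees lay between 0.187 and 1.28 TPM, with a median of 0.698 TPM. Every September bud was above every February bud, and Hokkaido replicate 1 was the lowest in September. CYE_r3.1SPE0_g037830.1, which ranked next, differed from it by at most 1.96% in any bud, so reads may be shared between them and the level of each is uncertain. The sources used here do not say how such reads were split.

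The next widest member of the September group was CYE_r3.1SPE0_g037710.1. In September it had 30.7 and 270 TPM in Hokkaido, 331 and 106 TPM in Tsukuba and 9.76 and 24 TPM in Fukuoka, so the Fukuoka trees were the lowest. The 2 Hokkaido trees differed widely on that date and less in August, when they had 158 and 223 TPM. In January it was listed at 0 in both Hokkaido trees and stood at 0.300 and 0.184 TPM in Tsukuba and at 0.331 and 0.0637 TPM in Fukuoka. CYE_r3.1SPE0_g000350.1 reached 768 and 987 TPM in Tsukuba in September and 903 and 714 TPM there in October, against 4.30 and 3.74 TPM in January. In the Hokkaido buds it had 91 and 74 TPM in September and 212 and 147 TPM in October, and in those of Fukuoka 381 and 399 TPM in September and 88.8 and 143 TPM in October. Both Hokkaido trees lay below both Tsukuba trees in each of these months.

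Among the members highest in October, CYE_r3.1SPE2_g018950.1 and CYE_r3.1SPA2_g025900.1 had the widest ranges. CYE_r3.1SPE2_g018950.1 had 105 and 59.2 TPM in Hokkaido, 86.8 and 99.3 TPM in Tsukuba and 39 and 56.9 TPM in Fukuoka in October. In January it was listed at 0 in 5 of the 6 trees and at 0.321 TPM in Tsukuba replicate 1. CYE_r3.1SPA2_g025900.1 had 99.9 and 58.0 TPM, 89.3 and 101 TPM and 44 and 54.2 TPM at the same sites in October. In the Hokkaido buds of 8 November both stood between 1.73 and 6.17 TPM, below every October bud. CYE_r3.1SPE0_g133800.1 had 27.1 and 68.2 TPM in Hokkaido, 62.3 and 67.8 TPM in Tsukuba and 50.3 and 64.2 TPM in Fukuoka in October, and CYE_r3.1SPE7_g001930.1 had 20.8 and 57.9 TPM, 54.5 and 49.7 TPM and 39.8 and 46.3 TPM. The sites overlapped in October for both. CYE_r3.1SPE7_g001930.1 was listed at 0 in all 4 Hokkaido and Tsukuba buds of January, and had 2.52 and 1.29 TPM in the Fukuoka buds of that month.

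The most abundant member was CYE_r3.1SPE7_g015310.1. It had 485 and 623 TPM in Hokkaido, 1416 and 1862 TPM in Tsukuba and 943 and 1339 TPM in Fukuoka in September, and 21.8 and 22.1 TPM, 117 and 106 TPM and 44.4 and 96.3 TPM at the same sites in January. CYE_r3.1SPE2_g033090.1 was highest in the Tsukuba buds of October, at 2033 and 1495 TPM, where Hokkaido had 724 and 431 TPM and Fukuoka 254 and 355 TPM. The sites did not overlap in October, with Tsukuba highest and Fukuoka lowest. The remaining member named for its abundance, CYE_r3.1SPE3_g018880.1, owed its mean to a single library.

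Fukuoka replicate 1 on 26 September stood apart in 8 members, and these are given before the comparisons they touch. In each of them this library was at least 10 times as high as the next of the 6 September buds. CYE_r3.1SPE3_g018880.1 had 5472 TPM there and 23.2 TPM in Fukuoka replicate 2 of the same date, and the other 4 trees lay between 0.230 and 9.47 TPM. CYE_r3.1SPE4_g012640.1 had 5297 TPM against 97.4 TPM in the next tree, and CYE_r3.1SPA4_g015950.1 had 5017 TPM against 169 TPM. The others were CYE_r3.1SPE8_g003310.1, CYE_r3.1SPE0_g168440.1, CYE_r3.1SPE4_g015860.1, CYE_r3.1SPA6_g016560.1 and CYE_r3.1SPE2_g032630.1, with 3101, 1491, 694, 660 and 129 TPM in that library. The 8 members held 2.19% of the TPM of that library and the other 192 members held 2.41%. Without these 8 members, the share of the TPM held in September was 2.59 ± 0.949% (SD, n = 6 trees).

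A further library was high in some of the same IDs. Tsukuba replicate 1 on 10 January had 714 TPM of CYE_r3.1SPA4_g015950.1, 344 TPM of CYE_r3.1SPE4_g012640.1 and 84.9 TPM of CYE_r3.1SPE3_g018880.1. Tsukuba replicate 2 of the same date had 0.439, 0.846 and 18 TPM of them. In each of them replicate 1 was the higher of these 2 trees. Across the 66 buds the correlation between any pair of the 8 members on the log2 scale ran from 0.37 to 0.99, and over the 65 buds without the Fukuoka library it ran from 0.09 to 0.99; the buds share trees and sites. Of all 200 members, 129 met the rule on range and month whichever single tree was left out. Without Tsukuba replicate 1, 39 members no longer met it, and without any of the other trees between 13 and 20 did not.

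**Figure D2:**
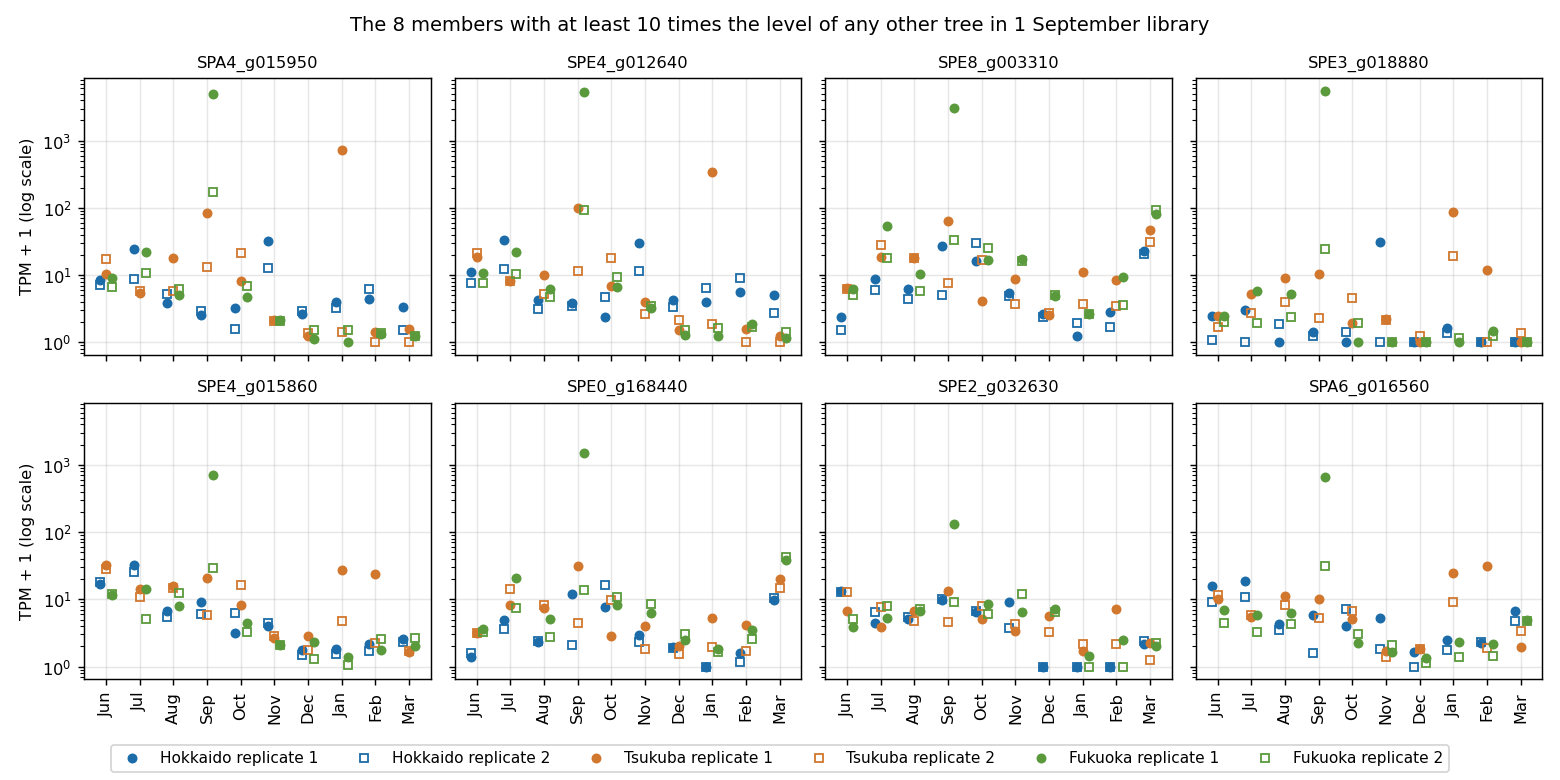
TPM + 1 on a log scale in each bud library from June to March for 8 members. In these, 1 September library was at least 10 times as high as any other September bud. Filled circles are replicate 1 and open squares replicate 2, with Hokkaido blue, Tsukuba orange and Fukuoka green. The point of Fukuoka replicate 1 in September stands alone at the top of each panel, between 129 and 5472 TPM.

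Each site had its own calendar within the common course. Over all 11 dates of a site, including 29 August and the April dates left out of the monthly means, 115 members were highest on 11 October in Hokkaido and 27 on 7 September. In Tsukuba 74 were highest on 5 September, 50 on 7 October, 23 on 7 August and 21 on 4 April. In Fukuoka 77 were highest as early as 4 July, 72 on 26 September and 26 on 24 October. Of the 200 members, 31 were highest in September or October at all 3 sites, 107 at 2 sites, 57 at 1 site and 5 at none. These are positions of means of 2 trees, with no test.

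**Figure D3:**
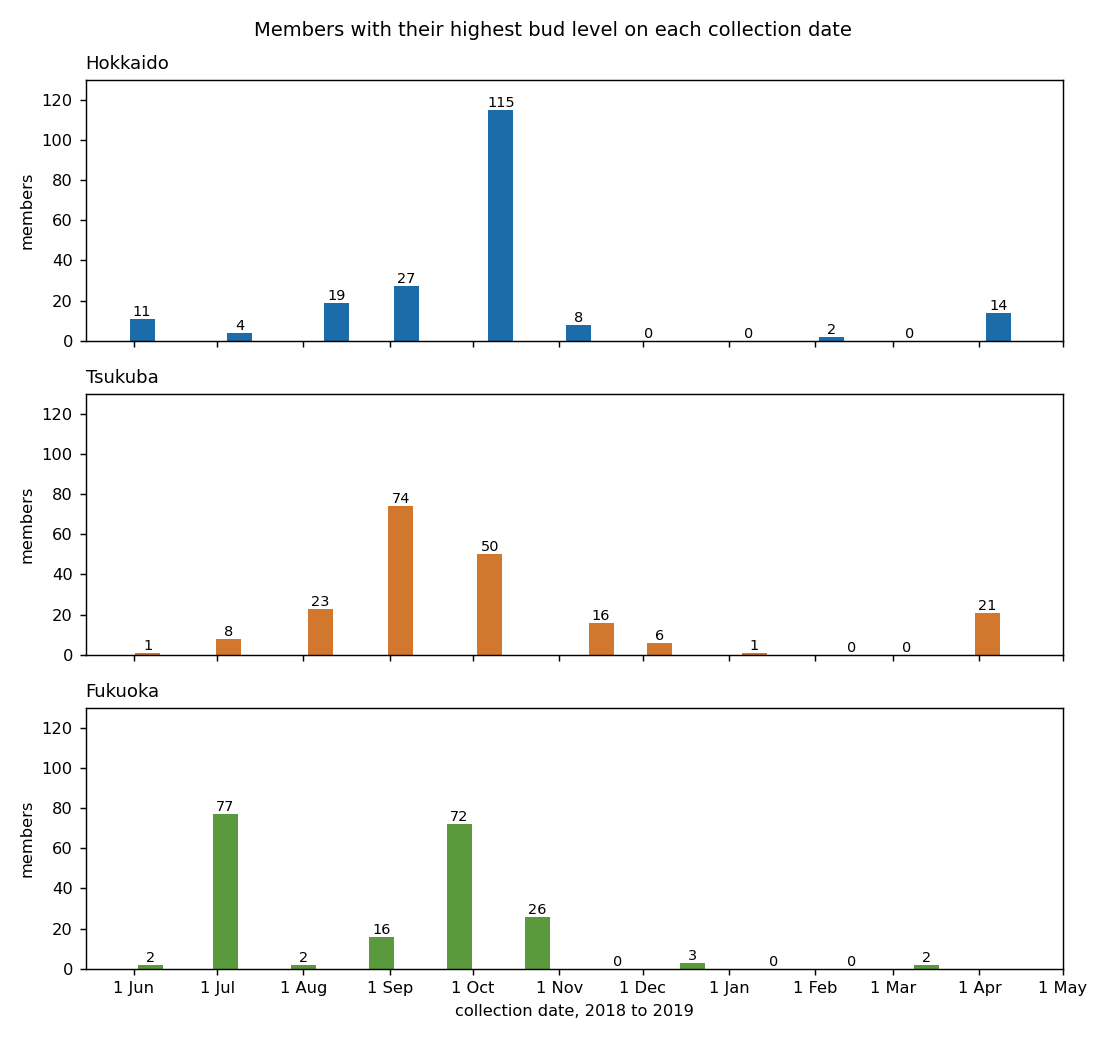
Number of the 200 members whose mean bud level of 2 trees was highest on each collection date, for Hokkaido (top), Tsukuba (middle) and Fukuoka (bottom). The tallest bar is 11 October in Hokkaido with 115 members, 5 September in Tsukuba with 74 and 4 July in Fukuoka with 77.

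Differences between sites within a month were tested with limma across all 40161 genes, with Benjamini-Hochberg adjustment. The rule did not use these contrasts, but it used the same bud values, and a gene very high at 1 site could enter through that site. The members' shares and calls here, in October and in the change to November are therefore not independent of that choice. They are given as a description, the shares beside those of all genes, and nothing is read from them. A gene was called at an adjusted p under 0.05 with site means at least 1 apart. In September 125 members (62.5%) were called, while 22.8% of all genes were. The called members were highest in Hokkaido in 25 cases, in Tsukuba in 86 and in Fukuoka in 14; of all genes, 14.1% were called with Hokkaido highest, 6.1% with Tsukuba highest and 2.59% with Fukuoka highest. Hokkaido was the lowest site in 96 of the 125, Tsukuba in 27 and Fukuoka in 2, where 6.69%, 14.5% and 1.61% of all genes were called with these sites lowest. Each group is 2 trees, and a p-value here measures the spread between trees of 1 clone.

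Between pairs of sites, the September buds of Hokkaido were higher than those of Tsukuba in 30 members and lower in 97, against 14.2% and 6.49% of all genes. Hokkaido was higher than Fukuoka in 9 members and lower in 55 (2.63% and 3.44% of all genes). Without the Fukuoka library of 26 September that stood apart, an alternative chosen after seeing the data, 4 were higher and 27 lower. The 64 calls became 24 without Fukuoka replicate 1, 41 without Fukuoka replicate 2 and 32 without Hokkaido replicate 1. Without Hokkaido replicate 2 there were 61, of which 23 were higher in Hokkaido and 38 lower. Tsukuba differed from Fukuoka in 36 members against 6.89% of all genes, 10 higher and 26 lower (2.24% and 4.65%), but without that library it was higher in 8 and lower in 3, and after scaling each library to the same median it was higher in 19 and lower in 18. The 36 calls became 10 without Fukuoka replicate 1, 22 without Fukuoka replicate 2 and 19 without Tsukuba replicate 1, so this contrast has no stable direction. Without Fukuoka replicate 1 the share of members called was 5% against 4.27% of all genes, and without the single library it was 5.5% against 4.95%, so the 36 calls are no result about the members. The median over all genes was 0.33 for Hokkaido minus Tsukuba in September as deposited and 0.02 after median scaling, and that of the members was -1.24 and -1.59.

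The 3 members with the widest range between sites in September were among those of the single library, CYE_r3.1SPA4_g015950.1, CYE_r3.1SPE3_g018880.1 and CYE_r3.1SPE4_g012640.1. Their site means were 8.40, 8.10 and 7.59 apart on the log2 scale. The same library helped to choose these members, so no p-value is given for them. Without it Fukuoka is left with a single September bud, and the ranges were 5.96, 4.19 and 4.68. With sites matched by order of collection, which takes 29 August as the Fukuoka date, these ranges were 3.60, 2.07 and 3.22. In that setting the 3 members were no longer called. Without the 8 members of the single library, 117 of 192 members were called between sites in September. Among the members that do not rest on that library, CYE_r3.1SPE0_g000350.1 was lower in Hokkaido than in Tsukuba by -3.39 (SE 0.70), and CYE_r3.1SPE2_g033090.1 by -2.15 (SE 0.44). The September buds helped to choose these members too, so no p-value is given for them either.

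In October 108 members (54%) were called between sites, against 25.2% of all genes. Hokkaido was highest in 36, Tsukuba in 66 and Fukuoka in 6 of these, while 12.9%, 7% and 5.22% of all genes were called with these sites highest. Hokkaido was the lowest site in 17, Tsukuba in 33 and Fukuoka in 58, while 4.76%, 17.2% and 3.24% of all genes were called with these sites lowest. Tsukuba differed from Fukuoka in 97 members against 17.3% of all genes, 69 higher and 28 lower (5.45% and 11.9%). Without Fukuoka replicate 1 it was higher in 46 and lower in 10, and without Tsukuba replicate 1 higher in 51 and lower in 10. After median scaling it was higher in 77 and lower in 14. Hokkaido was higher than Tsukuba in 30 members and lower in 47 (15.4% and 6.18% of all genes), and after median scaling higher in 26 and lower in 65. Hokkaido and Fukuoka differed in 12 members against 1.44% of all genes, 10 higher and 2 lower in Hokkaido (0.598% and 0.839%). The 12 calls became 2 without Fukuoka replicate 1, 3 without Fukuoka replicate 2, 19 without Hokkaido replicate 1 and 4 without Hokkaido replicate 2, and except without Hokkaido replicate 1 these were no longer mostly higher in Hokkaido. In all, 81 members (40.5%) were called between sites in both months and 48 (24%) in neither, against 14.2% and 66.3% of all genes.

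CYE_r3.1SPE7_g016510.1 and CYE_r3.1SPA7_g023430.1 had the widest range between sites in October. CYE_r3.1SPE7_g016510.1 had 10.4 and 26.8 TPM in Hokkaido, 355 and 420 TPM in Tsukuba and 3.52 and 6.53 TPM in Fukuoka. The 3 sites did not overlap, and Tsukuba exceeded Fukuoka by 6.05 on the log2 scale (SE 0.97). The October buds helped to choose the members, so no p-value is given for single members here. CYE_r3.1SPA7_g023430.1 had 15 and 26.7 TPM, 357 and 391 TPM and 4.4 and 7.38 TPM at the same sites, with Tsukuba above Fukuoka by 5.80 (SE 0.85). In the Tsukuba buds the level of CYE_r3.1SPE7_g016510.1 was still 212 and 161 TPM on 16 November and 235 and 85.4 TPM on 14 February. CYE_r3.1SPE8_g021450.1 followed, with 19.9 and 6.15 TPM in Hokkaido, 200 and 131 TPM in Tsukuba and 6.3 and 15.4 TPM in Fukuoka. In this member Tsukuba was above Fukuoka by 3.89 (SE 0.68).

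Whether the decline after October differed between sites was tested as well. Members changed between October and November by a median of -2.01 in Hokkaido, -0.49 in Tsukuba and -1.02 in Fukuoka on the log2 scale, over 28, 40 and 29 days. Over all genes the median level went from 3.25 in October to 3.02 in November in Hokkaido. It went from 2.92 to 3.19 in Tsukuba and from 3.23 to 3.24 in Fukuoka. A fall of at least 1 was seen in 166 members in Hokkaido, 58 in Tsukuba and 102 in Fukuoka, with no such count given for all genes. The difference between sites in this change, an interaction term, was called in 74 members (37%), against 27.8% of all genes. The change was the most negative in Hokkaido in 70 of the 74, in Tsukuba in 4 and in Fukuoka in 0, while 21.2%, 4.78% and 1.81% of all genes were called with these sites lowest. It was the least negative in Hokkaido in 3, in Tsukuba in 59 and in Fukuoka in 12, against 5.08%, 21% and 1.73% of all genes. The count was 34 without Hokkaido replicate 2, with 8844 of 40146 genes called, and 44 after median scaling, with 9262 of 40160 called. When sites were matched by order of collection it was 114, with 14973 of 40161 genes called. Without Hokkaido replicate 2 and after median scaling the share of members was below that of all genes, so the 74 calls are no result about the members.

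**Figure D4:**
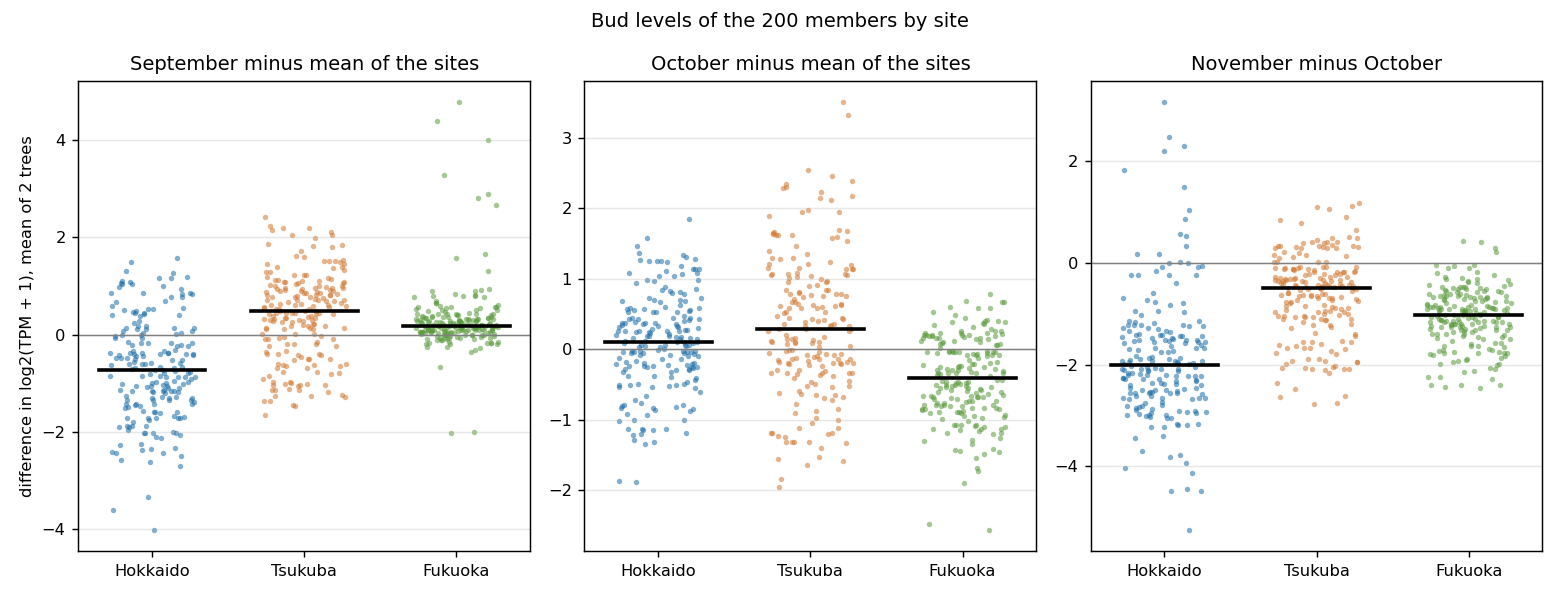
Bud levels of the 200 members by site, each point a member and each bar the median, on the log2(TPM + 1) scale and as means of 2 trees. The left and middle panels show the September and October level minus the mean of the 3 sites, and the right panel the change November minus October, with medians of -2.01 in Hokkaido, -0.49 in Tsukuba and -1.02 in Fukuoka.

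CYE_r3.1SPA0_g013840.1 was among the members with the widest difference. It was listed at 0 TPM in both Hokkaido buds of 8 November, 4.97 and 1.32 TPM in those of Tsukuba and 3.81 and 8.34 TPM in those of Fukuoka, against October levels of 20.2 and 22.7 TPM in Hokkaido, 3.57 and 4.77 TPM in Tsukuba and 21.1 and 20.1 TPM in Fukuoka. Its changes were -4.49, -0.46 and -1.69. CYE_r3.1SPA3_g021540.1 had 5.13 and 1.74 TPM in Hokkaido, 48.4 and 52.1 TPM in Tsukuba and 9.46 and 10.1 TPM in Fukuoka in November, against 50.5 and 19.3 TPM, 40.5 and 12.4 TPM and 8.9 and 18.5 TPM in October. Its changes were -2.98, 1.12 and -0.37, and the call ended with a pseudocount of 0.1 or without Tsukuba replicate 2. CYE_r3.1SPA4_g015950.1, of the single library, moved by 3.16 in Hokkaido, -2.62 in Tsukuba and -1.46 in Fukuoka. Its call ended with no filter and without any 1 of the 4 Hokkaido and Fukuoka trees.

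The members also differed together between the 2 trees of a site on some dates. The rule took means over the trees and not this contrast, though the same values entered most of those means. The 5 bud dates with the most such members are given here. On 5 July in Tsukuba, 114 members were at least 1 higher on the log2 scale in replicate 2 and 1 member was in replicate 1, while 4.11% and 2.62% of all genes were. On 7 June in Fukuoka 87 members were at least 1 higher in replicate 1 and 3 in replicate 2, and on 29 August there 97 were in replicate 1 and 2 in replicate 2. On 4 June in Hokkaido 77 were at least 1 higher in replicate 1 and 9 in replicate 2, and on 4 April in Tsukuba 87 were in replicate 1 and 1 in replicate 2. In all genes between 1.97% and 3.19% were that much higher in replicate 1 on these dates. CYE_r3.1SPE7_g015310.1 is an example, with 274 TPM in replicate 1 and 1040 TPM in replicate 2 of Tsukuba on 5 July. On the September dates the counts were more even, with 27 members at least 1 higher in replicate 1 and 19 in replicate 2 in Hokkaido, 14 and 10 in Tsukuba and 18 and 8 in Fukuoka. Of all genes, 2.48% and 3.08% were that much higher in Hokkaido, 1.79% and 1.13% in Tsukuba and 3.96% and 1.91% in Fukuoka. The Hokkaido leaves of 4 June were split as well. There 48 members were at least 1 higher in replicate 1 and 50 in replicate 2, against 8.68% and 3.60% of all genes. No test is given for these pairs of single libraries.

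Leaves held far less of most members than buds. Over the first 4 collections, the median member averaged 3.48 TPM in leaves and 42.0 TPM in buds (24 libraries each), 105 members were in leaves under 0.1 of their bud level, and 7 were higher in leaves. A mean of at least 1 TPM in leaves was reached by 139 members, and 3 were listed at 0 in all 24 leaf libraries. Since members were chosen for high levels in buds, this gap is a description. The extraction method of the RNA also differed between leaves and buds, per the labels' protocols, and it cannot be told apart from the tissue.

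**Figure D5:**
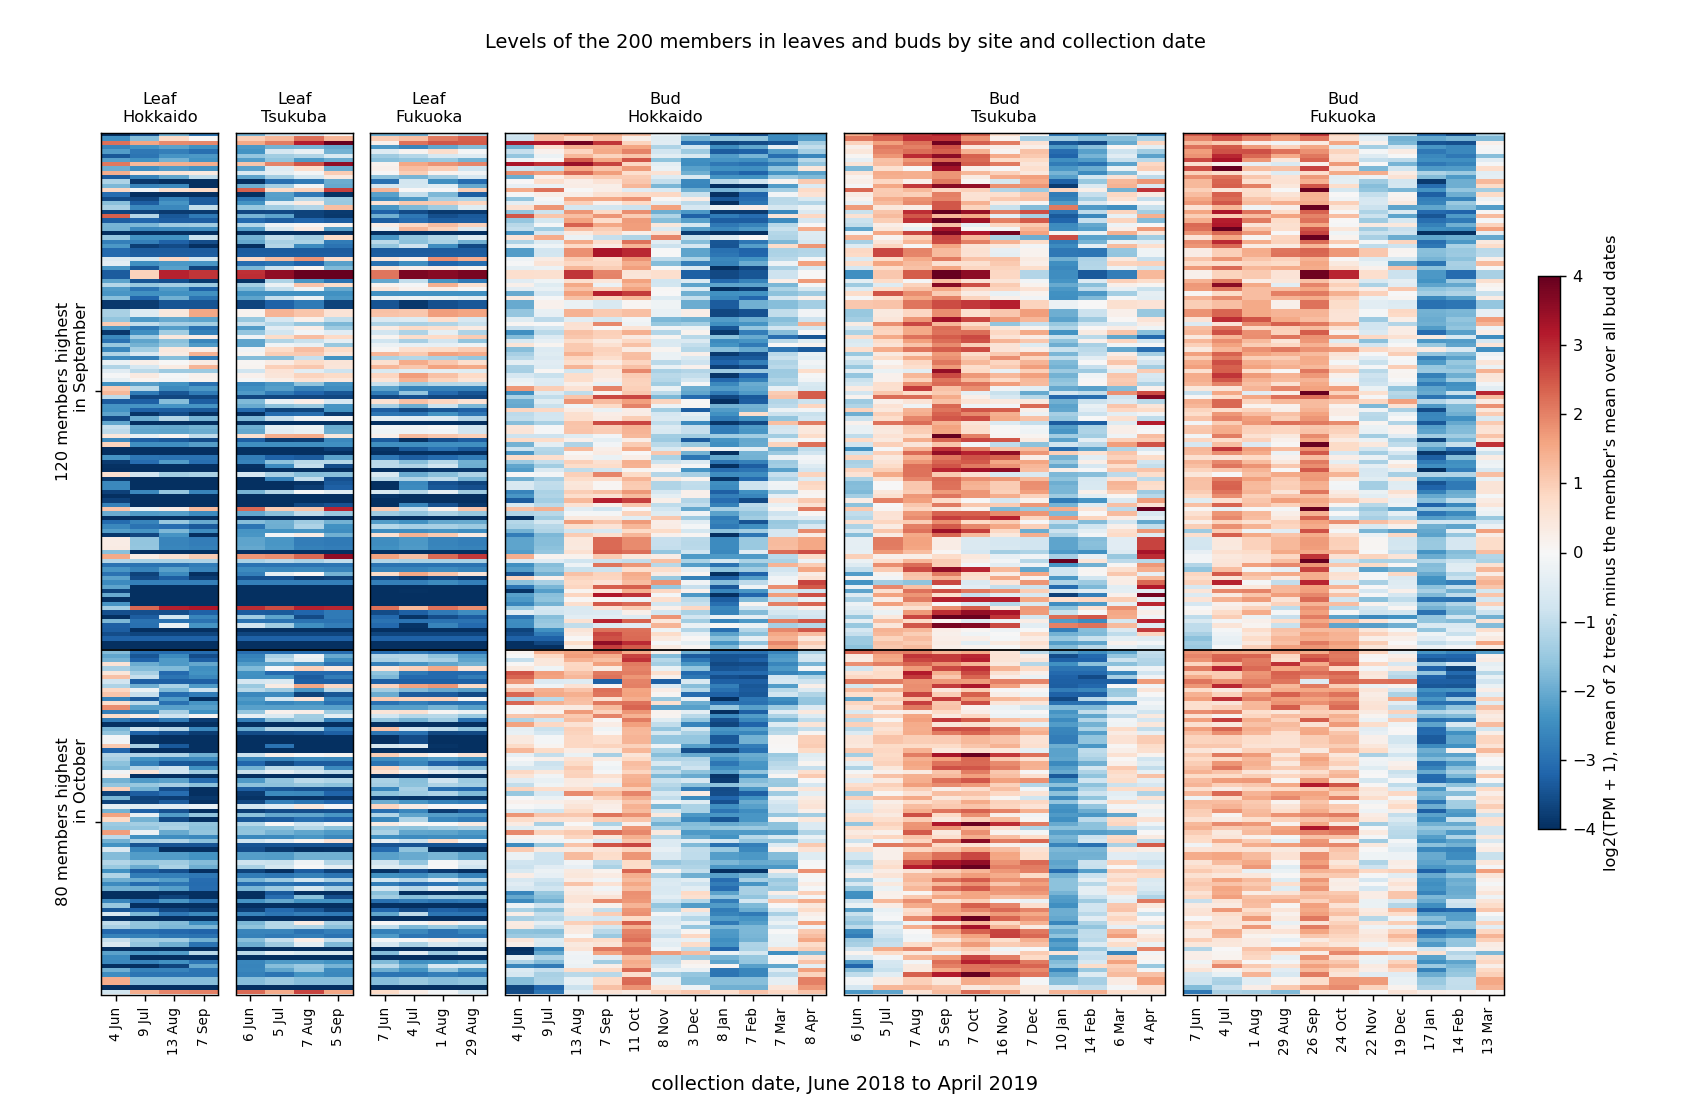
Level of each of the 200 members (rows) in leaves (first 3 blocks) and buds (last 3 blocks) on each collection date, as log2(TPM + 1) averaged over 2 trees minus the member's mean over all bud dates; red is above that mean and blue below, and colours are capped at 4. Rows are grouped into the 120 members highest in September and the 80 highest in October, and sorted within a group by their July level. Most rows are blue in the buds of January and February at all 3 sites, and most leaf rows are blue.

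The Fukuoka collection of 29 August was left out of the monthly means that chose the members. Its buds entered only the filter on mean TPM over 66 buds, and its leaves entered neither step. It allowed a comparison of leaves with buds from 39310 genes. Members were chosen for high bud levels in the same trees on other dates, so these calls too are a description. Against the Fukuoka buds of 1 August and 26 September, those of 29 August were below both in 121 members. They lay between them in 54 and above both in 25. Of the 200 members, 153 were called, against 37.7% of all genes, with 6 higher in leaf and 147 lower (13.7% and 24% of all genes), and the median difference was -2.79 for the members and -0.34 for all genes. CYE_r3.1SPA1_g002120.1 was listed at 0 in both Fukuoka leaves and stood at 110 and 166 TPM in the buds (difference -7.08, SE 0.61, limma adjusted p 9.62e-11). CYE_r3.1SPE3_g027950.1 had 0 and 0.865 TPM in the leaves and 421 and 76.5 TPM in the buds (difference -7.05, SE 0.68, limma adjusted p 8.77e-10). CYE_r3.1SPE0_g004720.1, the member with the widest yearly range in buds, went the other way, with 440 and 112 TPM in leaves and 71.6 and 6.6 TPM in buds (difference 3.25, SE 0.90, limma adjusted p 0.00294).

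Some members had a season of their own in leaves. Between the leaf collections of early June and of 29 August to 7 September, 40 of the 139 members tested were called, against 9.74% of 35534 genes, with 16 higher in the later collection and 24 lower (4.61% and 5.14% of all genes). With a mean of at least 5 TPM required, the calls were 13 higher and 11 lower, so the balance between directions depends on the filter. CYE_r3.1SPE0_g004720.1 rose by 3.12 (SE 0.34, limma adjusted p 6.31e-06). Its late leaves had 145 and 93.6 TPM in Hokkaido, 227 and 563 TPM in Tsukuba and 440 and 112 TPM in Fukuoka, against 0.631 and 0.577 TPM, 116 and 132 TPM and 113 and 43.3 TPM at these sites in June. The Hokkaido leaves of June lay far below the rest, and the difference is the widest there. CYE_r3.1SPE0_g037830.1, nearly identical in level, rose by 3.14 (SE 0.34, limma adjusted p 6.14e-06).

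Other members were lower in the later leaves. CYE_r3.1SPE4_g023320.1 fell by 3.18 (SE 0.53, limma adjusted p 2.87e-04), with 8.51 and 0.329 TPM in the late leaves of Hokkaido against 245 and 122 TPM in June, with 6.87 and 1.31 TPM in Tsukuba against 4.76 and 3.42 TPM, and with 1.13 and 6.56 TPM in Fukuoka against 32.3 and 77.6 TPM. The groups did not overlap in Hokkaido and Fukuoka and overlapped in Tsukuba. Its buds stayed between 66.8 and 206 TPM from June to August at all sites. CYE_r3.1SPE8_g022770.1 fell by 2.89 (SE 0.34, limma adjusted p 1.26e-05), with 3.21 and 0 TPM in the late leaves of Hokkaido against 61.3 and 93.7 TPM in June, 0 TPM in both of Tsukuba against 4.65 and 1.81 TPM, and 0.295 and 0.571 TPM in Fukuoka against 3.01 and 2.73 TPM. The late leaves lay below those of June at each site. Of the 200 members, 129 had their highest Hokkaido leaf level on 4 June. In Tsukuba leaves 45 were highest on 6 June and 84 on 7 August, and in Fukuoka leaves 63 were highest on 7 June. A member with equal levels, such as 0 on every date, is counted for the earliest date. No such count is given for all genes. The members most abundant in leaves were CYE_r3.1SPA6_g006180.1, with up to 1426 TPM in Tsukuba replicate 2 on 7 August, and CYE_r3.1SPA1_g039580.1, with 537 and 664 TPM in Hokkaido, 322 and 272 TPM in Tsukuba and 832 and 448 TPM in Fukuoka in the fourth collection.

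April buds, available from Hokkaido (8 April) and Tsukuba (4 April), were left out of the monthly means, and entered the rule only through the filter on mean TPM over 66 buds. March is among the months that chose the members. The change April minus March had a median of 0.87 over the members in Hokkaido and of -0.13 over all genes, and 185 of 200 members were above March, 80 of them by at least 1. In Tsukuba the median was -0.11 and that of all genes -0.21, with 51 members at least 1 above March and 57 at least 1 below. The change in Hokkaido was not tested against that in Tsukuba. In April itself 10 members were called between Hokkaido and Tsukuba, against 2.16% of all genes, 1 higher and 9 lower in Hokkaido (1.13% and 1.03%). CYE_r3.1SPA1_g038840.1 was the member called higher, with 411 and 282 TPM in Hokkaido and 133 and 65.5 TPM in Tsukuba (difference 1.85, SE 0.56, limma adjusted p 0.0367). CYE_r3.1SPA6_g016560.1 was lower, with 24.4 and 18.7 TPM in Hokkaido and 191 and 185 TPM in Tsukuba (difference -3.08, SE 0.85, limma adjusted p 0.0229). It is among the 8 members of the single Fukuoka library, which had 660 TPM of it against 30.6 TPM in the next September bud. Its Tsukuba buds of April were thus above every September bud except that library. CYE_r3.1SPE0_g133950.1 was lower as well, with 1.6 and 1.86 TPM against 15.9 and 10.7 TPM (difference -2.37, SE 0.72, limma adjusted p 0.0392). Each of these 3 calls ended without at least 4 of the 6 trees taken 1 at a time, and without Tsukuba replicate 1 the calls were 7 higher and 1 lower, and 3 were called without Hokkaido replicate 1. With the tree as a block 17 members were called, 6 higher and 11 lower, so the direction in April is not stable.

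The members were spread over the ID groups. IDs holding the letters SPA made up 100 of the members (of 20923 genes tested) and IDs holding SPE the other 100 (of 19238), and the meaning of these letters is unexplained in the labels. By the digit after the letters, SPE4 had the highest share of members, 15 of 1385 genes tested or 1.08%. In 50 members the course over 66 buds matched that of another member with a correlation of at least 0.99. This made 37 pairs, 11 of them of an SPA with an SPE ID, and in 9 pairs the levels lay within 10% of each other in every bud. With such groups counted once, the 200 members form 171 groups, so they are not 200 separate observations. CYE_r3.1SPA0_g078540.1 and CYE_r3.1SPA1_g039580.1 both averaged 315 TPM over the buds and never differed by more than 2.85%.

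Some members had neighbouring IDs. There were 19 members in 9 runs of consecutive IDs, the longest from CYE_r3.1SPA1_g038840.1 through CYE_r3.1SPA1_g038850.1 to CYE_r3.1SPA1_g038860.1. No such count was made for other sets of genes. The run of CYE_r3.1SPA0_g078530.1 and CYE_r3.1SPA0_g078540.1 was nearly matched in level by the run that holds CYE_r3.1SPA1_g039580.1. The same genes may therefore be counted more than once. In the October buds CYE_r3.1SPA1_g038840.1 had 732 and 527 TPM in Hokkaido, 600 and 446 TPM in Tsukuba and 287 and 456 TPM in Fukuoka. CYE_r3.1SPA1_g038850.1 had 731 and 571 TPM, 639 and 486 TPM and 352 and 529 TPM, close to its neighbour in each tree. CYE_r3.1SPA1_g038860.1 was lower, with 100 and 95.3 TPM, 150 and 168 TPM and 39.1 and 55 TPM. Of the other runs, CYE_r3.1SPA0_g078530.1 preceded CYE_r3.1SPA0_g078540.1, and CYE_r3.1SPA0_g148120.1 preceded CYE_r3.1SPA0_g148130.1, the last with 168 and 93.4 TPM in the October buds of Hokkaido, 142 and 117 TPM in those of Tsukuba and 35.8 and 57.8 TPM in those of Fukuoka.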

How the data were processed

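RNA sequencing libraries were made from apical buds (66) and leaves (24) of 6 trees. The authors deposited TPM values for 95076 IDs in 90 libraries, and a further deposited file holding fewer genes was not used here. Per the submitters' processing notes the tools were fastp 0.20.0, STAR 1.5.2 and StringTie 1.3.5; roles, settings, genome build and annotation: not given in the sources used here. TPM sums to the same total in every library, so depth is unknown and no counting interval could be given; over 1 TPM were 35471 to 40376 genes in a bud library and 33242 to 35300 in a leaf library. Groups were read from the titles in the labels.

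The test was limma 3.58.1 under R 4.3.3, with trend and robust off in eBayes, on the log2(TPM + 1) scale, data handling with the data.table package (1.17.8) and pandas 2.3.3, and plots with matplotlib 3.10.9 in Python 3.11.15. Buds were fitted with 33 means of site and date, leaves and the comparison of tissues likewise on genes with a mean of at least 1 TPM. Benjamini-Hochberg adjustment ran over all genes tested, and calls needed an adjusted p under 0.05 and a change, or range of sites, of at least 1. The members, lists, tests and naming rule were chosen with earlier results of these data known. Genes were named when they had the widest range (4 per month), the highest mean (3), the largest called change or range in a comparison, the highest leaf mean (2), a place next to the limit of 200, or a place in the longest runs of IDs; CYE_r3.1SPE8_g003310.1, CYE_r3.1SPE0_g168440.1, CYE_r3.1SPE4_g015860.1 and CYE_r3.1SPE2_g032630.1 were named after their values were seen. No gene list could be applied, since 0 IDs are paired with names.

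The fits and the choice of members were tested on simulated data. Replicate numbers mark the same tree at each date, which pairs them by design. The replicate 1 minus replicate 2 difference was correlated across genes between dates, with a median r of 0.0892 in Hokkaido, 0.0533 in Tsukuba and 0.0433 in Fukuoka buds, and 0.187, 0.195 and 0.225 in leaves. Alternatives covered the pseudocount, the filter, median and quantile scaling, trend and robust on, the tree as a block, the order of collection in place of the month, the trees with unbroken library numbers and each tree in turn; the omission of the Fukuoka bud library of 26 September, replicate 1, was chosen after seeing the data.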

Additional observations from a re-analysis of the deposited data

Results flagged for a closer look

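In 74 groups of 6 trees (named members in their highest month, and monthly summaries of the members), a tree was far from the others in 9, where chance flags about 1 in 20. That rate does not apply to all of these groups, since many of the genes were named for a wide range or a high mean, and 4 of the 9 came from a single library. Fukuoka replicate 1 of September was far above the others in CYE_r3.1SPE3_g018880.1 (5472 TPM), CYE_r3.1SPE4_g012640.1 (5297 TPM), CYE_r3.1SPA4_g015950.1 (5017 TPM) and CYE_r3.1SPA6_g016560.1 (660 TPM). Tsukuba replicate 2 of September was far above the others in CYE_r3.1SPE7_g016510.1 (722 TPM) and CYE_r3.1SPE1_g000360.1 (124 TPM). Hokkaido replicate 1 was far above the others in CYE_r3.1SPA1_g002120.1 in September (263 TPM) and in CYE_r3.1SPA0_g148120.1 in October (28.6 TPM). The share of TPM held by the members in June was 2.63% in Fukuoka replicate 1, where the other 5 trees lay between 0.457% and 1.22%.

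The change from October to November differed between sites, by the interaction term, in 74 members (37%), against 27.8% of all genes. Without Hokkaido replicate 2 it was called in 34 (17%), against 22% of all genes, and after median scaling in 44 (22%), against 23.1%. The changes of the sites were 5.79 apart in CYE_r3.1SPA4_g015950.1, 4.10 apart in CYE_r3.1SPA3_g021540.1 and 4.02 apart in CYE_r3.1SPA0_g013840.1 on the log2 scale.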

How the results depend on the processing

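Of the 200 members, 110 were chosen again with a pseudocount of 0.1 and 127 in the trees with unbroken library numbers; the other settings kept 142 to 200, and 150 to 172 without each tree. With the replicate block for the tree, the paired analysis called 17 members between Hokkaido and Tsukuba in April, 6 of them higher; it moved no other count by over 1.5 times. In April, a mean of at least 5 TPM gave 5 higher and the eBayes options 3 higher, and without each tree the calls ran from 3 to 9, 0 to 7 higher and 1 to 9 lower. For leaf collection 4 minus 1, a mean of at least 5 TPM left 24 calls, 11 of them lower. For November minus October, median scaling gave 44, the order of collection 114 and the omission of each tree 34 to 73. In October Hokkaido minus Fukuoka gave 5 with a pseudocount of 0.1, 6 with no filter, and 2 to 19 without each tree, and Tsukuba minus Fukuoka gave 56 to 95. In September Hokkaido minus Fukuoka gave 24 to 73 and Tsukuba minus Fukuoka 10 to 34 without each tree, the last 23 with a pseudocount of 0.1; without the Fukuoka library of 26 September, replicate 1, they gave 31 and 11, with 97 for Tsukuba minus Fukuoka in October and 75 for November minus October. Leaf members higher on 29 August in Fukuoka ran from 3 to 7 without each tree. The cause was not tested. The counts over all sites in September (95 to 122) and October (87 to 105), Hokkaido minus Tsukuba in September (92 to 129) and October (56 to 79), the leaf calls (36 to 45; 12 to 18 higher, 21 to 29 lower) and leaf minus bud (calls 119 to 153; 116 to 148 lower) moved less without each tree. For named genes, 263 values over 20 results kept the call and 26 over 8 results lost it. No direction turned in those results that have one. A range between sites has no sign, so its direction could not turn. With 2 trees per site and date and no depth in TPM, small differences and low genes are the least certain.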
